A study of Mus musculus with 16 samples.

Results

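The comparison described here is that of mouse cortical neurons whose electrical activity had been silenced and which carried either a hairpin against Nup153 (shNup153-2) or a control hairpin (shControl). It rests on 3 libraries per group, 6 of the 16 samples of the series, chosen by their labels alone, and covers all genes of the silenced count table. Primary cortical neurons came from C57/BL6 embryos of day 17.5 to 19.5, with the embryos of a litter pooled for each replicate. Cultures were infected on day 8 in vitro with adeno-associated virus (AAV) that carried the hairpin, and were collected on day 13. Both groups had received tetrodotoxin at 1 to 2 µM for 24 hours, a sodium channel blocker that stops action potentials, and D-AP5 at 100 µM for 6 hours, which blocks NMDA receptors. By the sample titles, the groups differ in the hairpin only, although the sample descriptions of the knockdown name the control virus. Per the labels, samples went forward only where the knockdown was judged sufficient, so a low Nup153 level was a condition of entry, and shNup153-2 is the only Nup153 hairpin used on silenced cultures. Neither the promoter driving the hairpin nor its sequence is given in the sources used.

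Nup153 is a nucleoporin of the nuclear basket, the set of filaments on the face of the nuclear pore turned towards the chromatin, where it binds beside Tpr and Nup50. Besides carrying import and export traffic, basket nucleoporins contact chromatin and are known to take part in gene regulation. The title of the series names the histone deacetylase HDAC1 as the partner through which Nup153 acts on neuronal responsiveness. A hairpin RNA is cut by the cell into a short guide strand that directs the breakdown of a matching transcript. As background, such guides can also lower other transcripts whose 3′ untranslated region (3′ UTR, the stretch behind the stop codon) pairs with the seed, bases 2 to 8 of the guide, as microRNAs do.

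The targeted gene was lower in all libraries labelled as knockdown. Nup153 (chr13:46679905-46727940 on mm10, minus strand) stood at 62.5, 49.97 and 60.2 CPM (counts scaled to a common library size with TMM factors) in shControl and at 10.4, 13.2 and 9.17 CPM in shNup153-2. The groups did not overlap, and the mean fell 5.26-fold, from 57.5 ± 6.65 to 10.9 ± 2.08 CPM (SD, n = 3 per group). The log2 fold change was -2.40 (SE 0.17, adjusted p = 0.00534, edgeR quasi-likelihood test). Without the shNup153-2 library numbered 1 the value was -2.38 and the adjusted p 0.0656.

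Libraries held 27975274 to 44470636 counts, and 18965 genes passed the filter on low counts. The 7 neuronal defining markers checked were all present, with Map2 at 1280 to 2002 CPM and Rbfox3 at 241 to 331 CPM, while 4 of 18 microglial markers passed the filter and the list summed to 8.77 to 16.8 CPM. Of its defining genes, Aif1 had 24 counts over the 6 libraries, Cx3cr1 1 and Tmem119 0. The largest axis of variation, with 42.3% of the variance, set both libraries numbered 2 apart from the rest, and the second, with 31.4%, separated the hairpins. Summed astrocyte marker levels (23 of 24 listed genes tested) differed most between the numbers and were lower in shNup153-2 within each pair. They were 1116, 3580 and 508 CPM in shControl and 937, 3052 and 467 CPM in shNup153-2, for numbers 1, 2 and 3. The typical marker went the other way, with a median log2 fold change of 0.24 and 13 of the 23 above 0. Mean log2 levels of the list were 3.77, 5.38 and 2.77 in shControl and 3.78, 5.67 and 2.84 in shNup153-2. In the paired fit 6 of the 23 rose and 2 fell. The part of astrocyte levels in the results was not tested. Fewer cells of a type and less RNA per cell cannot be told apart in such bulk samples. Libraries of equal number resembled each other, so a fit with the number as a block, called the paired fit here, is given beside the fit without it.

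At an adjusted p under 0.05, 306 genes rose and 348 fell in shNup153-2 neurons, which is 3.45% of the genes tested (1.61% up and 1.83% down). Of these, 110 rose and 164 fell more than 2-fold. Every called gene had 3 knockdown libraries on 1 side of all 3 control libraries, a separation shown by 25.8% of all genes tested. In the paired fit 2214 genes rose and 1946 fell, 21.9% of the genes tested (11.7% up and 10.3% down), and all 654 genes called without pairing were among them with the same sign. The count without pairing leaned on single libraries. It was 12 without the shControl library numbered 1, 659 without shControl number 2, 84 without shControl number 3, 4 without shNup153-2 number 1, 372 without shNup153-2 number 2 and 99 without shNup153-2 number 3. Leaving out both libraries numbered 2, which stand apart, gave 535 rises and 635 falls.

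**Figure D1:**
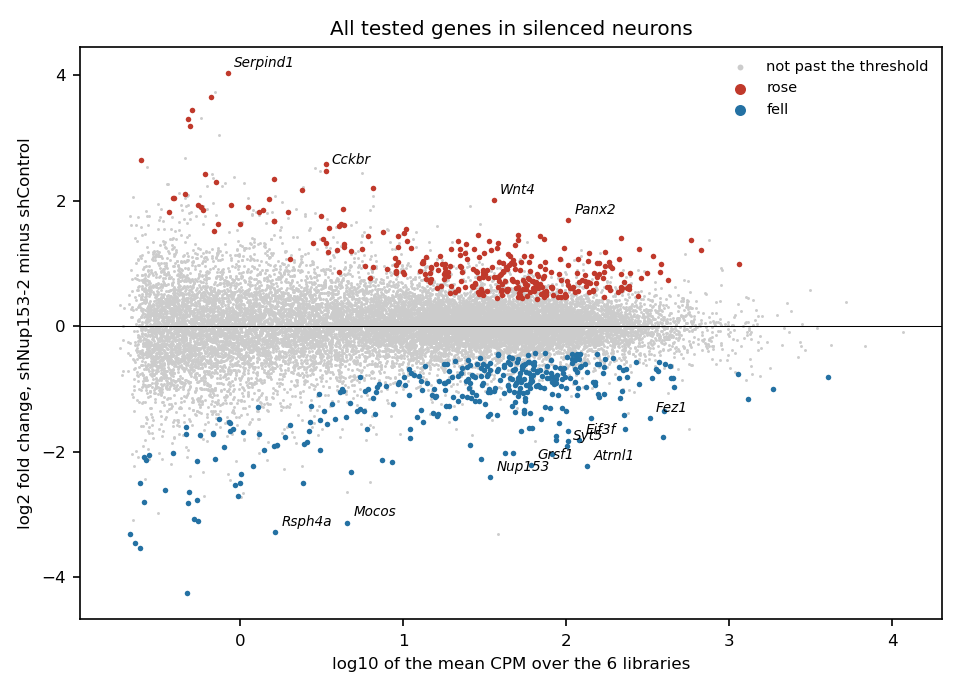
Mean CPM over the 6 silenced libraries (log10 axis, x) against the log2 fold change of shNup153-2 over shControl (y) for the 18965 genes tested; red points are the 306 genes that rose and blue points the 348 that fell. Labelled falls reach -3.28 (Rsph4a) and labelled rises 4.03 (Serpind1).

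Among the falls with the smallest p were well-expressed housekeeping and neuronal genes. Eif3f, a subunit of translation initiation factor eIF3, stood at 186, 183 and 194 CPM in shControl and at 52.3, 53.5 and 55.0 CPM in shNup153-2, 3.51-fold lower (log2 fold change -1.81, SE 0.09, adjusted p = 0.00218). Syt5, a synaptotagmin of vesicle membranes, stood at 153, 171 and 155 CPM against 39.3, 44.0 and 43.7 CPM (-1.91, SE 0.10, adjusted p = 0.00218). Grsf1, which binds G-rich RNA in mitochondria, stood at 108, 93.2 and 99.7 CPM against 21.9, 24.4 and 18.8 CPM (-2.21, SE 0.13, adjusted p = 0.00283). The spread within each group was small beside these differences, which picking genes by small p favours. The SD in shNup153-2 was 1.35 CPM for Eif3f and 2.77 CPM for Grsf1. Fez1, an adaptor that couples cargo to kinesin in axons, fell from 478 ± 12.0 to 173 ± 16.4 CPM, and Kctd10, an adaptor of a Cullin-3 ubiquitin ligase, from 132 ± 23.7 to 32.1 ± 2.44 CPM. Mib1, a ubiquitin ligase that acts on Notch ligands, fell from 133 ± 17.6 to 39.8 ± 4.17 CPM. Ubfd1, which has a ubiquitin-like domain, fell from 78.9 ± 5.03 to 31.2 ± 0.828 CPM. The adjusted p of these 4 genes lay between 0.00529 and 0.0063.

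By size, the falls were led by lowly expressed genes. Rsph4a, a protein of the radial spoke of motile cilia, stood at 3.16, 3.80 and 1.99 CPM against 0.160, 0.630 and 0.172 CPM (-3.28, SE 0.57, adjusted p = 0.0346). Mocos, which activates molybdenum-cofactor enzymes, stood at 9.09, 8.16 and 7.23 CPM against 0.525, 1.44 and 0.883 CPM (-3.13, SE 0.36, adjusted p = 0.0129). Atrnl1, an attractin-like membrane protein, was far more abundant, at 256, 153 and 258 CPM against 45.9, 41.9 and 55.0 CPM (-2.22, SE 0.23, adjusted p = 0.00914). Xk, a membrane protein known from the Kx blood group, fell from 14.1 ± 1.64 to 3.14 ± 0.608 CPM. The muscle membrane-repair gene Trim72 (log2 fold change -2.70) and the decoy receptor gene Tnfrsf23 (-2.33) fell too, and Mdfi, A3galt2, Grsf1 and Nup153 were also among the 12 largest falls.

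**Figure D2:**
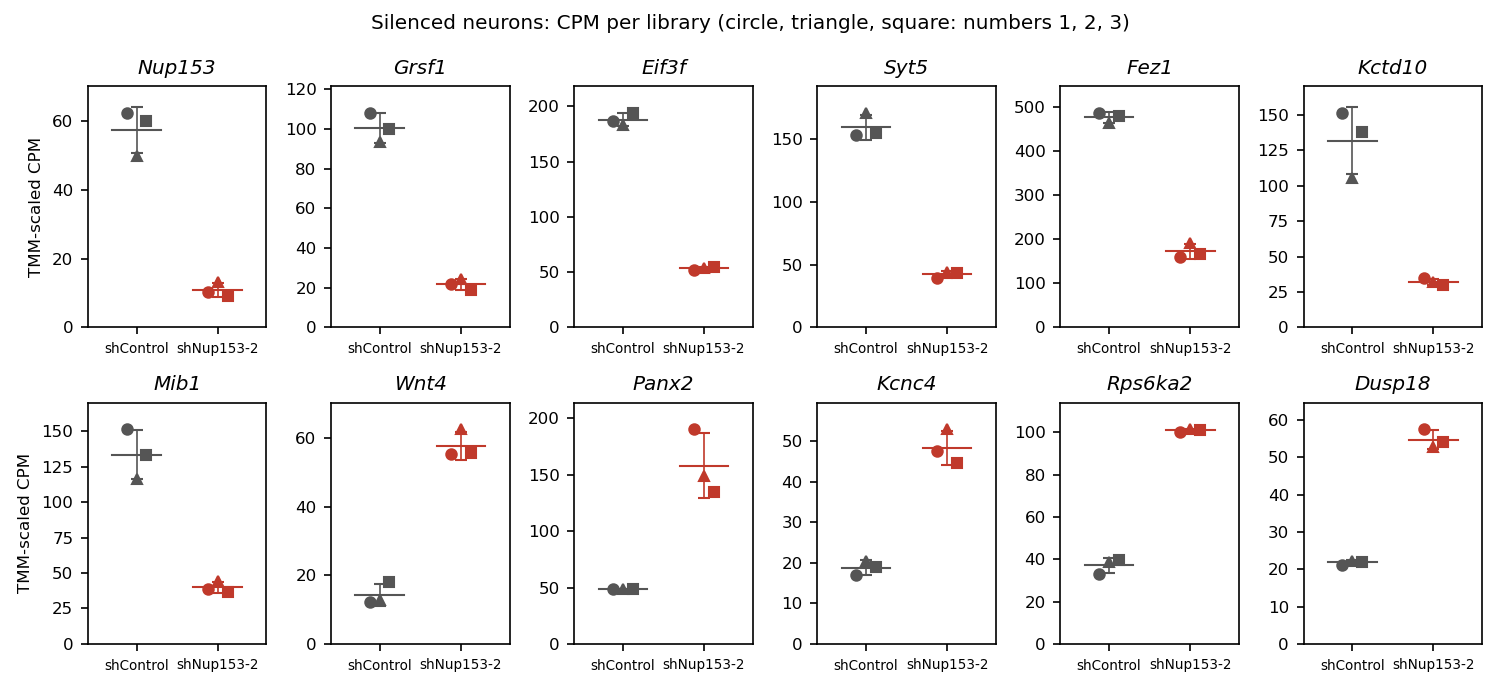
CPM (y, from 0) in each silenced library for Nup153, the 6 falls and the 5 rises shown, for shControl (grey) and shNup153-2 (red); circles, triangles and squares are libraries numbered 1, 2 and 3, and bars are the mean ± SD of 3 libraries. In every panel the groups do not overlap, with Fez1 at 464 to 488 CPM against 160 to 191 CPM and Rps6ka2 at 33.2 to 39.6 CPM against 100.0 to 101 CPM.

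The 8 rises with the smallest p ran from 1.88-fold (Gnpat) to 4.03-fold (Wnt4). Rps6ka2, which encodes the kinase RSK3, stood at 33.2, 38.7 and 39.6 CPM in shControl and at 100.0, 101 and 101 CPM in shNup153-2 (log2 fold change 1.44, SE 0.10, adjusted p = 0.00529). Dusp18, a dual-specificity phosphatase, stood at 21.1, 22.3 and 22.0 CPM against 57.5, 52.6 and 54.0 CPM (1.33, SE 0.09, adjusted p = 0.00529). Wnt4, a secreted Wnt ligand, stood at 12.2, 12.9 and 17.97 CPM against 55.2, 62.5 and 55.6 CPM (2.01, SE 0.17, adjusted p = 0.00634). Wnt4 was the only gene that entered both by size and by p among the rises. Panx2, a pannexin channel of neurons, stood at 49.0, 48.7 and 48.5 CPM in shControl and higher and more variable, at 190, 149 and 135 CPM, in shNup153-2 (1.70, SE 0.14, adjusted p = 0.00634). Gnpat, which starts plasmalogen synthesis, rose from 51.7 ± 1.01 to 97.1 ± 1.23 CPM, the zinc-finger gene Hivep1 from 14.0 ± 1.39 to 34.5 ± 0.747 CPM and Fam171a1 from 38.5 ± 2.27 to 83.8 ± 0.535 CPM.

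The largest rises were again of lowly expressed genes. Serpind1, which encodes the thrombin inhibitor heparin cofactor II, stood at 0.0574, 0.205 and 0.0266 CPM against 2.90, 1.02 and 0.858 CPM (4.03, SE 0.78, adjusted p = 0.0448). Card10, a scaffold of NF-kappaB signalling, stood at 1.20, 0.614 and 1.06 CPM against 7.25, 3.57 and 6.57 CPM (2.59, SE 0.37, adjusted p = 0.0228). Cckbr, the receptor for cholecystokinin in the brain, stood at 0.688, 1.75 and 0.611 CPM against 5.20, 8.05 and 3.83 CPM (2.48, SE 0.49, adjusted p = 0.0449). Groups without overlap were a condition for naming these 3 genes, and their libraries varied widely within a group. Ucp2, a carrier of the inner mitochondrial membrane, rose from 1.83 ± 0.189 to 6.69 ± 0.886 CPM, the immune surface gene Cd83 from 0.870 ± 0.207 to 3.93 ± 1.11 CPM and the transcription factor gene Nfatc4 from 0.240 ± 0.115 to 1.19 ± 0.427 CPM. Ak9, Fbxo27, Ppl and Apol8 were also among the 12 largest rises.

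Rises and falls differed in their 3′ UTRs. Every 7-base word was ranked by how far the genes holding it in the 3′ UTR lay below the other genes, using only the pair of libraries numbered 1, and ATAGCTT came lowest of 16178 words, with TAGCTTA, its neighbour shifted by 1 base, next. This word was found in the data and not sought, so pair 1 supports nothing. In pairs 2 and 3, which share no library with pair 1, ATAGCTT again ranked lowest, and so it did between shNup153-2 and shControl at basal activity. Only the strand of the transcript was searched. The sites listed here show the word in capitals within its transcript, 10 bases to each side where the transcript reaches that far, for called falls named above; they are on mm10, 5′ to 3′ along the transcript, and all but the last lie in a 3′ UTR of the GENCODE annotation.
Grsf1, chr5:88660021-88660047, minus strand: atttggtcaaATAGCTTttcattttat
Grsf1, chr5:88659736-88659762, minus strand: aaggacattaATAGCTTcacttgaatt
Grsf1, chr5:88659525-88659551, minus strand: ttaatactaaATAGCTTgttatttaaa
Eif3f, chr7:108941659-108941685, plus strand: ccaaataaacATAGCTTaccttttgta
Syt5, chr7:4539765-4539784, minus strand: aaaatactcaATAGCTTaga
Fez1, chr9:36878680-36878706, plus strand: ttaaacgtgtATAGCTTaacctggatt
Kctd10, chr5:114363884-114363910, minus strand: ataaaccagaATAGCTTtttgctcatg
Atrnl1, chr19:58132640-58132666, plus strand: ccatgtatacATAGCTTaatttgatga
Atrnl1, chr19:58132773-58132799, plus strand: ccttttggatATAGCTTatattcctta
Nup153, chr13:46689088-46689114, minus strand, coding sequence: tgccaagtgcATAGCTTgtgaaagtgc

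Of the 302 falls with an annotated 3′ UTR, 148 (49.0%) held ATAGCTT there, against 10.2% of all 13789 such genes tested and 3.19% of the 282 rises. The named falls followed that split unevenly. Grsf1 held 3 copies, Atrnl1, Xk and Rsph4a 2 each, and Eif3f, Syt5, Fez1, Kctd10, Mib1 and Tnfrsf23 1 each, while Mocos, Trim72, Mdfi and A3galt2 had none and Ubfd1 held only TAGCTTA. None of the 12 largest rises, nor any of the 8 rises with the smallest p, held ATAGCTT. The 3′ UTR of Nup153 itself (1253 bases) had no copy, and its transcript held a single one, at base 3054 of 6109, within the coding sequence.

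In the pairs that did not choose the word, the medians were lower with each further copy. Between the libraries numbered 2 they were 0.06 with no copy, -0.08 with 1, -0.20 with 2 and -0.37 with 3 or more, and between those numbered 3 they were 0.02, -0.22, -0.45 and -0.57. The values that follow, like the shares of falls and rises above, come from fits that include pair 1 and are given as a description. The median log2 fold change was 0.04 in 12377 genes with no copy, -0.17 in 1193 genes with 1 copy, -0.37 in 190 genes with 2 copies and -0.60 in 29 genes with 3 or more, and the percentages that fell were 1.24, 8.89, 17.4 and 31.0. Genes holding the 8-base word ATAGCTTA, which joins both top words, had a median of -0.29 (327 genes, of which 17.7% fell and 0 rose). By pair, the medians of genes with any copy were -0.24, -0.09 and -0.25 against 0.03, 0.06 and 0.02 without, so the shift was smallest between the libraries numbered 2. The median 3′ UTR length was 2891 bases with the word and 1102 bases without, and the part of length in the difference was not tested beyond these medians by length. Among genes with short 3′ UTRs (up to 739 bases) the medians were -0.18 with the word and 0.02 without, among those of middle length -0.18 and 0.06, and among long ones (over 1895 bases) -0.20 and 0.03. Genes with the word in the coding sequence only had a median of -0.08 (433 genes, 2.08% fell), and genes with no copy in the transcript 0.04 (11893 genes, 1.22% fell). Without the hairpin's sequence, whether its guide pairs with these sites was not tested. The genes with no copy still included 273 rises and 154 falls, that is, most rises and 154 of the 302 falls.

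**Figure D3:**
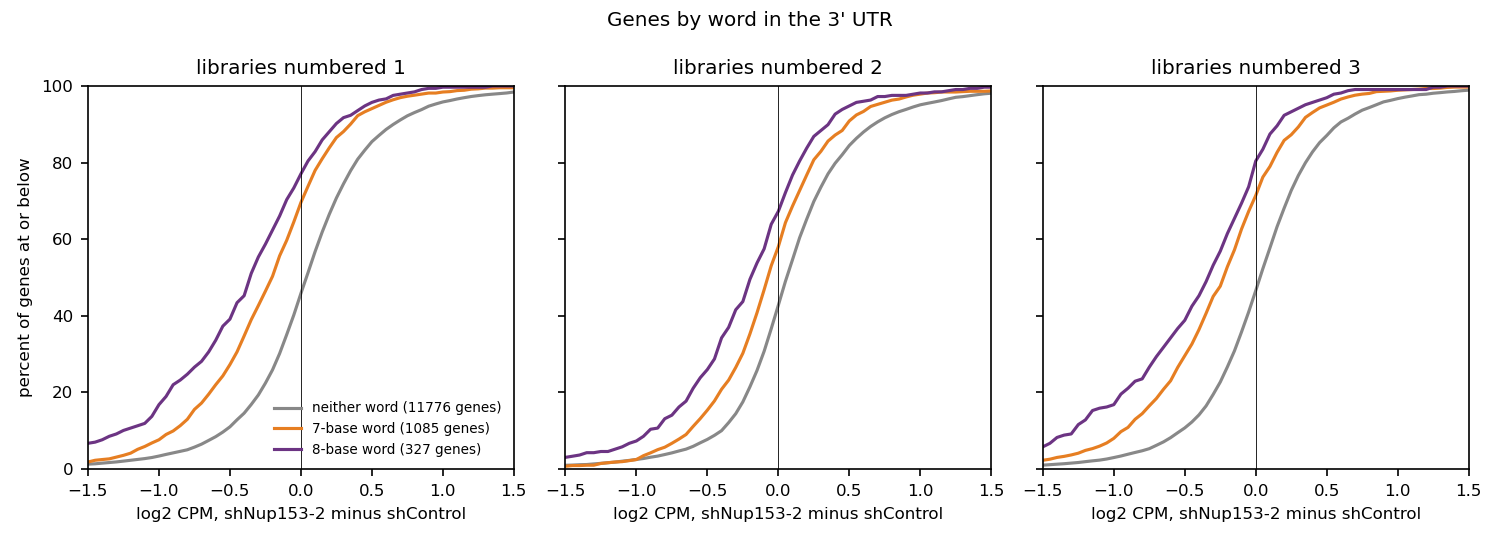
Cumulative percent of genes (y) at or below each log2 difference between shNup153-2 and shControl (x) within the libraries numbered 1, 2 and 3, for genes with the 8-base word in the 3′ UTR (327 genes), with the 7-base word but not the longer one (1085 genes) and with neither ranked word (11776 genes). The medians of the 8-base word are -0.37, -0.20 and -0.34 in the panels for numbers 1, 2 and 3, and those of genes with neither word 0.04, 0.06 and 0.03; towards the ends of the panels the curves meet or cross.

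Rises and falls also differed in base composition. The median GC content of the longest annotated transcript was 53.1% for rises and 46.7% for falls, against 49.4% for all genes, and median transcript lengths were 3678 and 3817 bases against 2904. Called genes were expressed above the middle of the range, with medians of 40.6 CPM for rises and 43.1 CPM for falls against 13.2 CPM. Some falls and rises were among the most abundant RNAs of the cells, and these were picked by level after their values were seen. The long noncoding RNAs Meg3 (log2 fold change -0.80, adjusted p = 0.0483) and Malat1 (-0.76, adjusted p = 0.0496) fell, as did Gpm6a, a neuronal membrane glycoprotein gene (-1.01, adjusted p = 0.0241), and the imprinted gene Nnat (-1.16, adjusted p = 0.0451). Ddn, which encodes the dendritic protein dendrin, rose (1.37, adjusted p = 0.0313), as did Nsmf, which encodes Jacob, a protein that travels from synapse to nucleus (1.21, adjusted p = 0.0114).

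Of 30 nuclear pore genes tested, 3 rose and 4 fell in the paired fit, against 11.7% up and 10.3% down over all genes. Without pairing 2 rose and 2 fell, and the list median was -0.02. Besides Nup153, Tmem33 fell from 131, 104 and 123 CPM to 76.9, 77.7 and 71.6 CPM (-0.66, adjusted p = 0.0325); it holds 2 copies of the word. The membrane nucleoporin genes Ndc1 (19.7, 23.2 and 21.1 CPM against 32.6, 36.2 and 33.3 CPM) and Pom121 (53.3, 48.8 and 56.5 CPM against 93.5, 72.9 and 87.5 CPM) rose by 0.67 and 0.68 on the log2 scale. The basket partners of Nup153 were close to their control levels. Nup50 stood at 67.9, 54.1 and 70.3 CPM against 81.1, 64.2 and 83.7 CPM (0.25, adjusted p = 0.404), higher within each pair and past the threshold in the paired fit (adjusted p = 0.0325). Tpr stood at 166 ± 11.0 and 169 ± 15.1 CPM (0.03, adjusted p = 0.934). Among 31 importins, exportins and Ran-cycle genes, only Xpot, the exporter of transfer RNA, passed without pairing. It fell from 109, 125 and 108 CPM to 43.4, 52.6 and 42.1 CPM (-1.31, adjusted p = 0.00757) and holds 1 copy of the word. In the paired fit 2 of the 31 rose and 5 fell. None of 18 lamina and LINC genes, which tie the nuclear envelope to chromatin and cytoskeleton, passed without pairing, and 1 rose (Lmna) and 3 fell in the paired fit.

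Hdac1 was at like levels in both groups, at 15.5, 20.2 and 18.1 CPM against 14.2, 19.5 and 16.9 CPM (-0.09, SE 0.16, adjusted p = 0.8294, and 0.523 in the paired fit). Of 28 genes of the class I histone deacetylase complexes, 1 rose and none fell without pairing. In the paired fit 2 rose and 6 fell, Hdac2 among the falls (227, 195 and 240 CPM against 177, 149 and 199 CPM, adjusted p = 0.0136). Over all genes, 11.7% rose and 10.3% fell in that fit. Among 14 histone genes, the linker histone gene Hist1h1c (-0.90, adjusted p = 0.0157) and Hist3h2a (-0.84, adjusted p = 0.00914) fell without pairing, neither with a copy of the word. In the paired fit 2 rose and 3 fell. Histone genes are alike in sequence, and how shared reads were counted is not given.

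Activity-regulated genes did not pass without pairing. None of 33 immediate early genes, which neurons switch on within minutes of firing, and none of 38 late activity-regulated genes were called, with medians of -0.02 and 0.14 against 0.01 over all genes. In the paired fit 3 of the 33 rose (Nr4a3, Egr1 and Gadd45g) and 5 fell, shares not far from the 11.7% and 10.3% of all genes. Nr4a3 stood at 6.94, 6.11 and 11.3 CPM against 21.4, 11.8 and 28.6 CPM (1.35, adjusted p = 0.102, paired 0.00149) and Egr1 at 13.7, 18.2 and 9.97 CPM against 17.8, 25.3 and 16.5 CPM (paired adjusted p = 0.0128). Egr2, of the same zinc-finger family, lay the other way, at 10.04, 13.5 and 4.31 CPM against 2.26, 3.47 and 2.23 CPM (-1.81, adjusted p = 0.0697, paired 0.00350). Atf3 was high in the shControl library numbered 2 only, at 4.15 CPM, against 0.316 and 0.930 CPM in the other two. Among the late genes 8 rose and 4 fell in the paired fit, with the opioid precursor gene Pdyn at 1.15, 1.93 and 0.771 CPM against 5.22, 6.58 and 1.69 CPM and Nptx1 at 61.6, 141 and 42.6 CPM against 134, 238 and 74.2 CPM on the side of the rises.

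Of 58 potassium and HCN channel genes, 3 rose and 1 fell without pairing, and 21 rose and 4 fell in the paired fit. Over all genes, 1.61% rose and 1.83% fell without pairing, and 11.7% rose and 10.3% fell in the paired fit. The median log2 fold change of the list was 0.18, with 40 of 58 above 0. Kcnc4, a fast-activating Kv3 channel, stood at 16.9, 20.6 and 18.8 CPM against 47.4, 52.9 and 44.6 CPM (1.36, SE 0.12, adjusted p = 0.00701). Hcn2, a pacemaker channel, stood at 33.4, 32.2 and 39.2 CPM against 78.8, 64.8 and 84.3 CPM (1.12, adjusted p = 0.0145), and Kcnj11, the pore of the ATP-sensitive channel, at 19.5, 19.4 and 20.4 CPM against 39.2, 33.1 and 36.9 CPM (0.88, adjusted p = 0.0145). These 3 lay apart from control by more than the whole spread within either group. Kcnj3, a G-protein-gated channel, fell (83.6, 69.0 and 68.6 CPM against 48.2, 46.4 and 37.8 CPM, adjusted p = 0.0380) and holds 1 copy of the word. Among 25 sodium and calcium channel genes 1 rose and none fell without pairing, and 3 rose and 1 fell in the paired fit (median 0.06), near the shares over all genes.

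Synaptic genes were called in both directions, as were genes at large (1.61% up and 1.83% down without pairing, 11.7% up and 10.3% down in the paired fit). Of 46 excitatory postsynaptic genes 2 rose and none fell without pairing, and 14 rose and 2 fell in the paired fit (median 0.12). Grin2d, an NMDA receptor subunit, stood at 8.03, 8.01 and 10.2 CPM against 19.2, 16.2 and 21.2 CPM (1.11, adjusted p = 0.0242), and the scaffold gene Shank3 at 124, 117 and 122 CPM against 233, 246 and 180 CPM (0.86, adjusted p = 0.0268). At inhibitory synapses, the GABA-A receptor subunit gene Gabrd (9.24, 9.85 and 12.9 CPM against 21.3, 27.2 and 20.8 CPM) and the chloride exporter gene Slc12a5 (282, 293 and 230 CPM against 540, 533 and 391.7 CPM) rose with adjusted p of 0.0305 and 0.0434, and none of the 21 fell without pairing. In the paired fit 5 rose and 4 fell, among the falls the receptor subunit genes Gabra2 and Gabrb1, which hold 1 and 2 copies of the word. Of the 21 genes 8 hold the word, among them 3 of the 4 falls and 2 of the 5 rises. On the presynaptic side 1 of 46 rose and 3 fell without pairing, and 13 rose and 7 fell in the paired fit (median 0.11). The Rab3 effector gene Rph3a rose (86.0, 76.7 and 93.1 CPM against 252, 151 and 170 CPM, adjusted p = 0.0344), and Syt5, Syt9 (19.0, 12.3 and 22.2 CPM against 4.63, 7.77 and 7.38 CPM, adjusted p = 0.0461) and Slc17a6 fell. Of these 3 falls, 2 hold the word. Slc17a6 and Slc17a7 encode vesicular glutamate transporters, which load glutamate into vesicles, and they lay in opposite directions. Slc17a6 stood at 55.7, 48.0 and 44.2 CPM against 15.8, 19.99 and 20.1 CPM (-1.40, adjusted p = 0.00914), and Slc17a7 at 354, 579 and 250 CPM against 666, 879 and 426 CPM (0.74, adjusted p = 0.323, paired 0.00168).

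**Figure D4:**
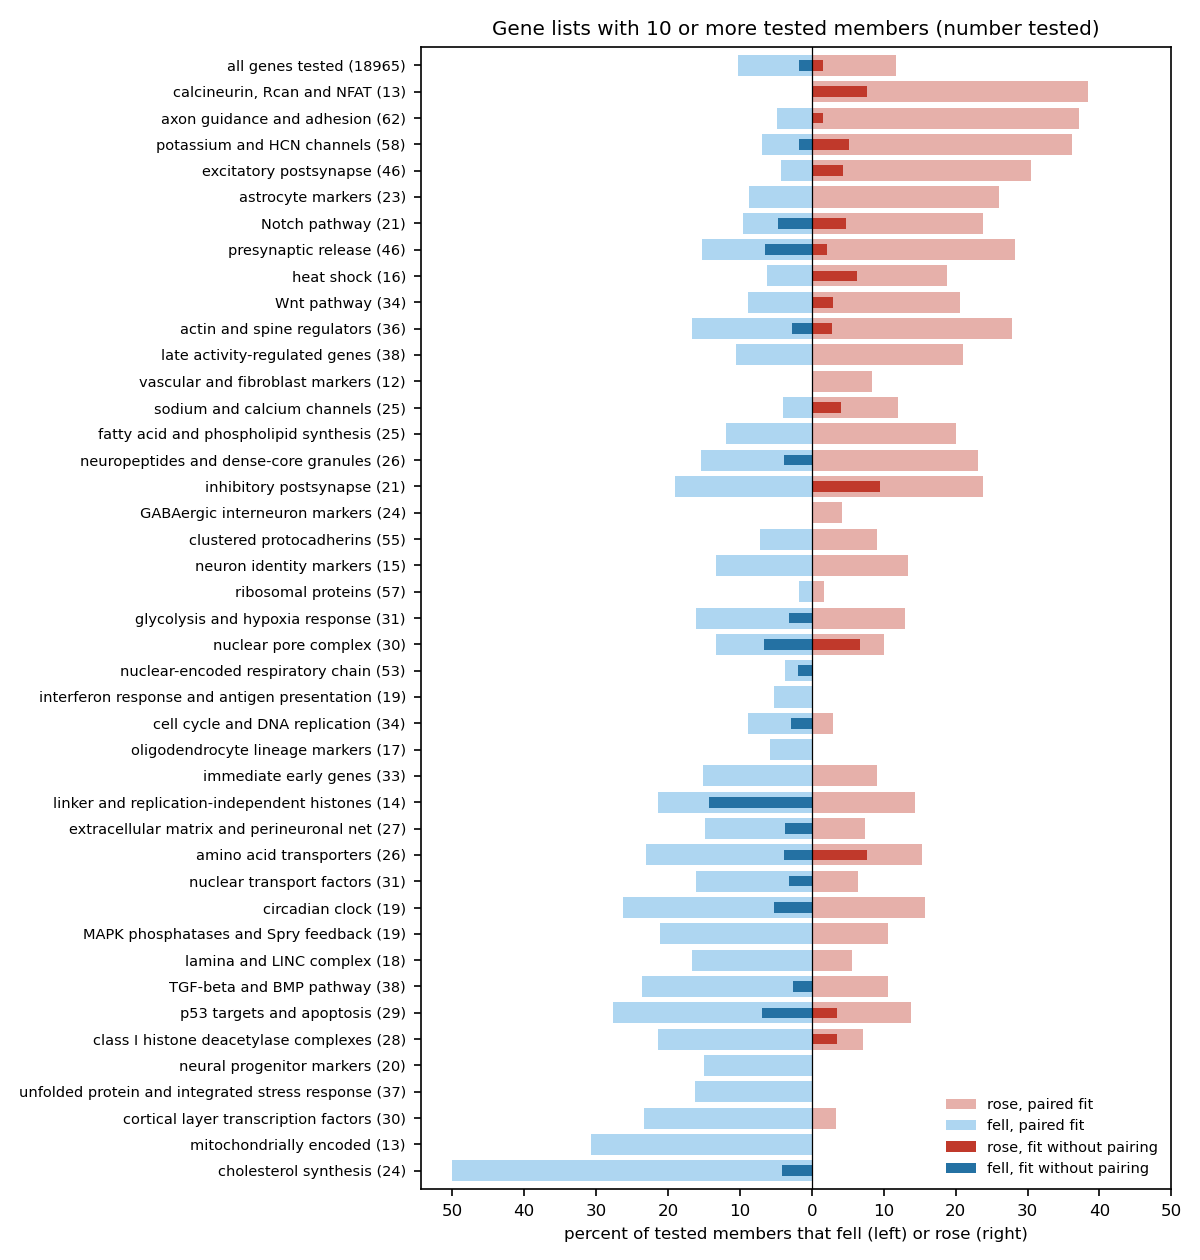
Percent of the tested members of each gene list (y, number tested in brackets) that fell (left, blue) or rose (right, red) in silenced shNup153-2 neurons, in the fit without pairing (narrow dark bars) and in the paired fit (broad pale bars), with all genes tested in the top row. Potassium and HCN channels (21 of 58) and axon guidance genes (23 of 62) extend furthest to the right among lists of more than 20 genes, and cholesterol synthesis (12 of 24) furthest to the left.

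Of 62 axon guidance and adhesion genes, the netrin gene Ntn4 alone passed without pairing (9.87, 9.09 and 8.08 CPM against 16.7, 19.1 and 13.8 CPM, 0.87, adjusted p = 0.0428). In the paired fit 23 rose and 3 fell (median 0.11), against 11.7% up and 10.3% down over all genes. Among the rises there were the ephrin receptor genes Ephb3 (12.9, 9.50 and 16.0 CPM against 26.8, 18.7 and 26.3 CPM) and Ephb2 (84.2, 50.4 and 120 CPM against 192, 104 and 211 CPM), with paired adjusted p of 0.00174 and 0.000857. Both were higher within every pair; the groups of Ephb2 overlapped and those of Ephb3 did not. Of 36 actin and spine regulators, 10 rose and 6 fell in the paired fit. Without pairing Ctnnd2, a delta-catenin of dendrites, rose (113, 134 and 112 CPM against 344, 329 and 281 CPM, 1.41, adjusted p = 0.00753) and the actin regulator gene Abi2, with 2 copies of the word, fell (307, 249 and 278 CPM against 182, 166 and 167 CPM, -0.70, adjusted p = 0.0298). In the matrix list the glycoprotein gene Tnc fell from 77.9, 51.2 and 74.0 CPM to 16.8, 13.6 and 19.7 CPM (-2.02, adjusted p = 0.00914), with no copy of the word. The dense-core granule gene Scg3 fell as well (165, 132 and 184 CPM against 42.4, 42.6 and 50.1 CPM, -1.83, adjusted p = 0.00634), with 1 copy.

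In the paired fit 5 of 21 Notch pathway genes rose and 2 fell, against 11.7% up and 10.3% down over all genes. Without pairing, few genes of the signalling lists passed. In the Notch list Rfng, which adds sugars to Notch, rose (54.5, 51.5 and 66.2 CPM against 143, 122 and 145 CPM, 1.25, adjusted p = 0.00914). Rbpj, the DNA-binding partner of active Notch, fell (22.0, 18.1 and 24.2 CPM against 11.0, 12.4 and 11.6 CPM, -0.88, adjusted p = 0.0305), with no copy of the word. Of 34 Wnt pathway genes Wnt4 alone passed without pairing, and 7 rose and 3 fell in the paired fit. Of 38 TGF-beta and BMP genes Skil, an inhibitor of Smad proteins, fell (86.9, 68.0 and 84.2 CPM against 29.1, 33.5 and 29.3 CPM, -1.38, adjusted p = 0.00753), with 1 copy of the word, and 4 rose and 9 fell in the paired fit. The clock repressor gene Cry1 fell (27.0, 20.2 and 24.0 CPM against 14.2, 11.2 and 12.5 CPM, -0.91, adjusted p = 0.0334), with no copy of the word.

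Sterol genes leaned downward. Of 24 cholesterol synthesis genes tested, 22 had a log2 fold change below 0, the median was -0.29, and 12 fell and none rose in the paired fit. Over all genes, 11.7% rose and 10.3% fell in the paired fit. Without pairing only Hsd17b7 passed, at 83.7, 48.6 and 72.0 CPM against 31.2, 35.1 and 22.5 CPM (-1.20, adjusted p = 0.0468); it holds 1 copy of the word, which only 2 of the 24 do. Msmo1, a sterol methyl oxidase, stood at 114, 115 and 167 CPM against 67.3, 65.7 and 98.3 CPM (-0.78, adjusted p = 0.109, paired 0.000837), and Sqle, the squalene epoxidase, at 252, 177 and 340 CPM against 162, 133 and 236 CPM (paired adjusted p = 0.00374). Summed over the list, shControl stood at 3297, 2490 and 4542 CPM and shNup153-2 at 2550, 2267 and 3487 CPM, lower within each pair but with overlapping groups. Genes of the unfolded protein and integrated stress response had a median of -0.40, with 35 of 37 below 0, and 6 fell in the paired fit, but their sum was high in 1 library, at 7154 CPM in shControl number 2 against 3360 to 4492 CPM in the other 5. The 13 mitochondrially encoded genes of the list had a median of -0.16, with 0 called without pairing and 4 falls in the paired fit. Their sum was 36605, 35165 and 32612 CPM in shControl against 29983, 29783 and 29692 CPM in shNup153-2, with no overlap. Singly, 5 of the 13 were lower without overlap, against 2341 of all 18965 genes tested. The mitochondrial percent of all counts did overlap, at 4.22, 4.54 and 3.73 in shControl against 3.98, 3.97 and 3.96 in shNup153-2. Of 53 nuclear-encoded respiratory chain genes 1 fell without pairing, Sdha, with 1 copy of the word (285, 299 and 275 CPM against 162, 203 and 172 CPM, -0.68, adjusted p = 0.0331). In the paired fit none rose and 2 fell.

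Of 29 p53 target and apoptosis genes, 4 rose and 8 fell in the paired fit, against 11.7% up and 10.3% down over all genes. Without pairing the pore-forming Bak1 rose (28.1, 28.0 and 29.0 CPM against 66.3, 52.2 and 66.7 CPM, 1.12, adjusted p = 0.0100), and Zmat3 and Sesn3 fell, with 3 and 2 copies of the word. Zmat3, an RNA-binding p53 target, stood at 85.3, 65.8 and 88.9 CPM against 23.8, 26.8 and 25.0 CPM (-1.67, adjusted p = 0.00634). The cyclin gene Ccne1, with no copy, fell from 27.9, 18.1 and 24.4 CPM to 8.55, 9.49 and 8.17 CPM (-1.43, adjusted p = 0.0157), 1 of 34 cell cycle genes to pass without pairing. In the paired fit 1 of the 34 rose and 3 fell. Ndrg1, a gene of the hypoxia and differentiation response, fell from 437, 270 and 337 CPM to 100.3, 123 and 112 CPM (-1.64, adjusted p = 0.0129), also with no copy. No member of the astrocyte, oligodendrocyte, microglia, vascular, interneuron, progenitor, cortical layer or neuron identity lists passed without pairing. In the paired fit 1 rose and 7 fell of 30 cortical layer transcription factor genes, against 11.7% up and 10.3% down over all genes. Closer to those shares, 3 fell of 20 progenitor markers, and 2 rose and 2 fell of 15 neuron identity markers. Of the other lists, besides the astrocyte markers given above, 1 of 24 interneuron and 1 of 12 vascular markers rose, 1 of 17 oligodendrocyte markers fell and none of the 4 microglial markers tested passed. Rbfox3, the neuronal nuclear antigen, stood at 241, 256 and 265 CPM against 331, 325 and 297 CPM (0.32, adjusted p = 0.132) and Tubb3, neuronal tubulin, at 1591, 754 and 1687 CPM against 841, 614 and 991 CPM (-0.72, adjusted p = 0.280); in the paired fit both passed, in opposite directions.

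Among the largest changes past the threshold only in the paired fit were genes that vary strongly with the number. The metallothionein gene Mt2 stood at 23.3, 175 and 8.93 CPM in shControl and at 4.08, 13.9 and 3.29 CPM in shNup153-2, lower within each pair (-3.30 without pairing, adjusted p = 0.176, paired 0.00314). Prnp, the prion protein gene, stood at 939, 1087 and 551 CPM against 235, 418 and 181 CPM (-1.63, adjusted p = 0.0635, paired 0.000654). Robo3, a receptor of axon guidance, stood at 12.1, 26.3 and 5.21 CPM against 71.1, 42.8 and 20.9 CPM (1.63, adjusted p = 0.217, paired 0.00926), and the neuroendocrine gene Resp18 at 0.574, 3.65 and 0.957 CPM against 5.11, 19.0 and 4.24 CPM (2.45, adjusted p = 0.171, paired 0.000837). For Prnp the groups did not overlap, whereas for Robo3 the shControl library numbered 2 lay above the shNup153-2 library numbered 3.

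The same hairpin had also been sequenced without silencing. In a joint fit with 4 basal shControl and 2 basal shNup153-2 libraries, 3833 genes (18.3%) were called at basal activity. The log2 fold change of Nup153 was -2.49 there, against -2.40 in silenced neurons. Of the silenced rises that could be compared, 242 of 305 (79.3%) rose at basal activity too, and of the falls 269 of 348 (77.3%) fell, with no gene called in opposite directions. These were 12.6% of the basal rises and 15.3% of the basal falls. Here the silenced calls are those of the fit without pairing, and the basal calls those of the joint fit. The paired fit, which called 21.9% of genes in silenced neurons, was not compared in this way. Over 18921 genes the log2 fold changes of both states correlated at a Pearson's r of 0.54 and a Spearman's rho of 0.50, a description across genes, which are not independent replicates.

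**Figure D5:**
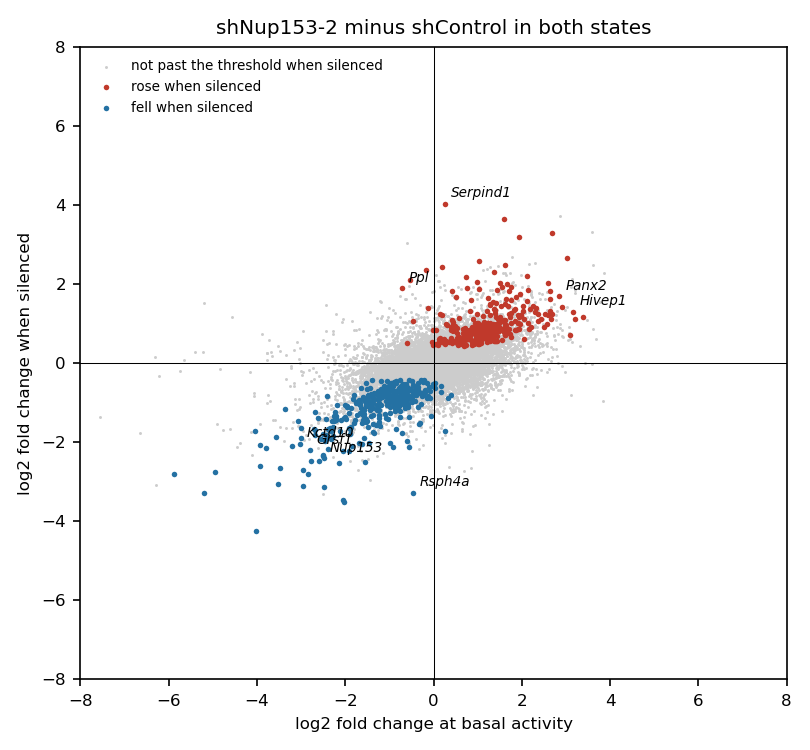
Log2 fold change of shNup153-2 over shControl at basal activity (x) and in silenced neurons (y) for 18921 genes, with genes that rose (red) or fell (blue) in silenced neurons. Of the called genes, 296 of 305 rises lie to the right of 0 and 341 of 348 falls to the left, and Hivep1 and Panx2 lie further from 0 at basal activity than in silenced neurons.

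Whether the hairpin's effect differed between states was tested gene by gene. In edgeR the silenced effect minus the basal effect passed for 0 of 20926 genes (0%), with 2393 genes at an unadjusted p under 0.05; limma-voom called 1. The 3 genes with the smallest p shared an adjusted p of 0.0549 and were named for it after their values were seen. They were the amino acid transporter gene Slc7a8 (difference -2.37, SE 0.29), the calcineurin inhibitor gene Rcan2 (-2.07, SE 0.27) and Fbxl16 (-2.07, SE 0.28), an F-box gene, and the log2 fold change was above 0 in both states for all 3. In the joint fit Slc7a8 stood at 28.2, 30.4 and 37.3 CPM against 52.9, 46.9 and 58.0 CPM in silenced neurons and at 10.6 to 19.1 CPM against 119 and 116 CPM at basal activity. Rsph4a and Serpind1, the largest fall and rise here, had basal log2 fold changes of -0.46 and 0.25 (adjusted p = 0.510 and 0.895), and the difference between states missed the threshold for both (adjusted p = 0.171 and 0.361).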

How the data were processed

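Poly(A) RNA was sequenced from stranded libraries with paired reads of 100 bases. The deposited tables hold raw counts per gene symbol, made with featureCounts 2.0.1 on mm10 after FastQC, per the submitters' processing notes; aligner, annotation and strand setting were not given in the sources used, so reads of overlapping genes on opposite strands may not have been told apart. The sample descriptions of the knockdown name the control virus, and groups follow the titles. Per the labels, a biological replicate is 1 pooled litter. The silenced table has 55304 symbols, of which 20081 had no counts.

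Counts were kept by filterByExpr (minimum count 10), scaled by TMM and tested with the quasi-likelihood test of edgeR 4.0.16 in R 4.3.3, with Benjamini-Hochberg adjustment over all genes and a threshold of 0.05. The joint fit used 12 libraries over 26371 shared symbols; 4 basal columns were not used, 2 of them of the same name and 2 of another hairpin. Log2 values of single libraries carry a prior count of 2. Alternatives were DESeq2 1.42.0, limma-voom (limma 3.58.1), RLE factors, no filter, the block and leaving out each library.

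Residuals of libraries with equal numbers correlated at 0.29, 0.57 and 0.62 across genes, all over 0.1; the labels do not say that a number marks a shared litter. Within groups, libraries differed by far more than counting noise.

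Transcripts and 3′ UTRs of at least 50 bases are from GENCODE M21 (GRCm38), 1 transcript per gene, with the longest 3′ UTR. Words in at least 50 genes were ranked over 12422 genes with a mean of at least 1 CPM.

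Genes named are Nup153, Nup50, Tpr and Hdac1; the 12 largest rises and falls whose libraries do not overlap, with at least 1 CPM; the 8 of smallest p each way with at least 10 CPM; up to 4 per list by p and 3 called only in the paired fit; and the 8 largest called only in the paired fit with at least 5 CPM, without predicted and clone-named genes. The comparison and the 44 gene lists were chosen with earlier results of these data known. Some genes that this rule selects are not reported here.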

Additional observations from a re-analysis of the deposited data

How the results depend on the processing

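Of the 73 called genes named in the text other than Nup153, all 73 passed with the replicate number as a block, with RLE factors, without the low-count filter, with DESeq2 and with only the symbols of the basal table, and 68 passed with limma-voom; none changed sign under these settings or when 1 library was left out. Without the shControl libraries numbered 1, 2 and 3, 9, 58 and 30 of them passed, and without the shNup153-2 libraries 4, 47 and 30. Counts moved more. With the replicate block 4160 genes were called (2214 up, 1946 down), with DESeq2 1608 (801 up, 807 down) and without both libraries numbered 2, a setting chosen after seeing the data, 1170 (535 up, 635 down). Leaving out 1 library gave 4 to 659 calls, of 1 to 273 rises and 3 to 386 falls, and leaving out 1 pair in the paired fit 1331 (number 1) to 7438 (number 2) calls. The Nup153 value ran from -2.55 to -2.28 over the libraries left out. Over the same settings Hdac1 ran from -0.201 to 0.00817 and Tpr from -0.0483 to 0.0929, so neither has a stable sign. For the difference between states, no filter gave 3 genes, limma-voom 1 (Slc7a8) and the replicate block 2 (Slc7a8 and Vgf). Leaving out 1 library gave 0 to 12, the most without the basal shControl library numbered 1. For all of these genes the log2 fold change of shNup153-2 over shControl was lower in the silenced state than at basal activity. Basal calls ran from 934 (without the basal shNup153-2 library numbered 1) to 5186 (without basal shControl number 1). The share of falls with ATAGCTT was 28.0% in the paired fit and 39.7% to 70.5% under the other settings with at least 20 falls. Where leaving out a library left 2 against 3, the cause of lost calls was not tested. Genes near the 1 CPM minimum, such as Serpind1, rest on few counts per library.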
